A study of Mus musculus with 10 samples.

Results

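The ligands and receptors of the vascular endothelial growth factor (VEGF) system were followed in iKCs, a mouse cell line named so in the labels. The set was chosen by gene symbol and held 8 of the 55866 genes in the deposited count table. It comprised the ligands Vegfa, Vegfb, Vegfc and Pgf, the tyrosine kinase receptors Flt1 and Kdr, and the co-receptors Nrp1 and Nrp2. Polyadenylated RNA was sequenced in bulk from 10 libraries of cells that carried a lentiviral vector and were sorted for mOrange, a fluorescent marker, and for viability. Overexpression of miR-342-3p was driven by the vector in 3 libraries, and 2 libraries carried its control, a mutated miR-342-3p. A further 3 libraries carried a sponge against miR-342-3p, and 2 a scramble control sponge. Sponges are RNAs whose binding sites hold a microRNA away from its targets. All 4 groups therefore shared the line, the lentiviral transduction and the sort, and no untransduced group was analysed here. The titles call the libraries biological replicates without saying whether cultures were grown separately, so p-values cover only the spread among these libraries, which may be technical.

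VEGF-A is the main growth factor for blood vessels, and macrophages are among the cells that secrete it. It signals through the receptor tyrosine kinase VEGFR2, encoded by Kdr, while VEGFR1, encoded by Flt1, binds VEGF-A tightly with weak kinase activity and also serves as the receptor for VEGF-B and placental growth factor (Pgf). Neuropilins, encoded by Nrp1 and Nrp2, have short intracellular tails, present VEGF to the kinase receptors and also bind class 3 semaphorins. VEGF-C acts mainly on lymphatic vessels. Vegfa transcription is a textbook response to low oxygen.

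The microRNA and its matches in the members' 3′ untranslated regions (UTRs) are shown first, because a vector for a microRNA can act through them. The mature sequence of miR-342-3p is that of RefSeq (chr12:108658680-108658702 of GRCm38.p6, plus strand), and its capitals mark the seed, bases 2 to 8. The target windows are 30 bases long and come from GRCm38 through the GENCODE vM21 annotation. Their capitals mark the match, a 7mer-m8 (GTGTGAG, opposite seed bases 2 to 8) in Vegfa and a 7mer-A1 (TGTGAG followed by A) in Kdr and Flt1.
miR-342-3p: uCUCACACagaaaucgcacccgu
Vegfa, 7mer-m8, chr17:46017804-46017833 minus strand: cttggctgtgtGTGTGAGtggcttaccctt
Kdr, 7mer-A1, chr5:75933595-75933624 minus strand: ggccgaagaatTGTGAGAacagaacagaaa
Flt1, 7mer-A1, chr5:147637605-147637634 minus strand: gccccaaatgcTGTGAGAacaatcagcagc

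The match in Vegfa starts at base 1036 of a 3′ UTR of 1865 bases, and it was the single match there. Kdr had its 7mer-A1 at base 810 of 1596 and a 6mer (TGTGAG with neither extension) at base 1493. Flt1 had its 7mer-A1 at base 1507 of 3971 and 3 6mers, and Nrp2 had 1 6mer in 3325 bases. The 3′ UTRs of Vegfb (417 bases), Vegfc (1028), Pgf (776) and Nrp1 (549) held no match of these kinds. Over the longest 3′ UTRs of 21020 genes, 9.77% held a 7mer-m8, 11.0% a 7mer-A1 and 37.2% a match of any class, the 8mer included. A match is a description of letters and was not tested as a binding site.

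**Figure D1:**
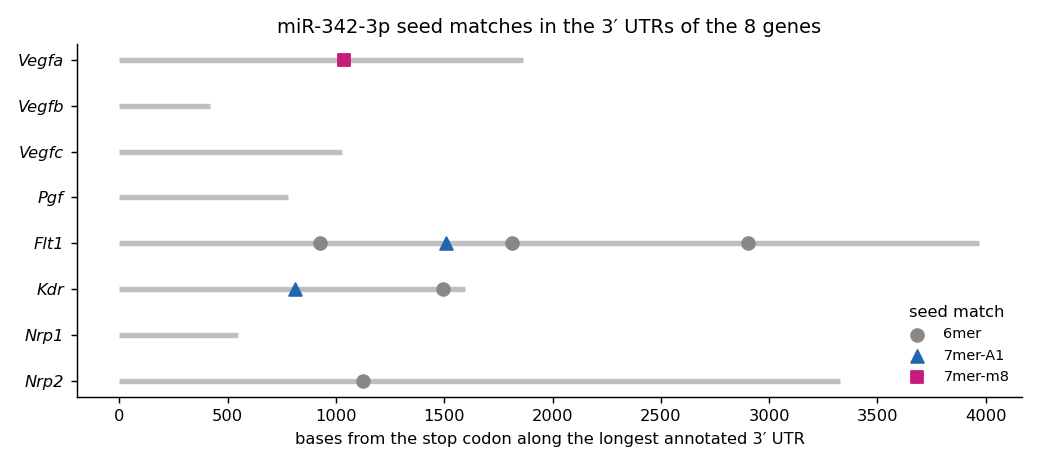
Matches to the miR-342-3p seed along the longest annotated 3′ UTR of each of the 8 genes, in bases from the stop codon. Grey bars span the UTR, and symbols give the class of match. Vegfa carries the single 7mer-m8, at base 1036, Flt1 the most matches (4), and Vegfb, Vegfc, Pgf and Nrp1 none.

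Totals ran from 25712732 counts (overexpression replicate 3) to 59259988 (overexpression replicate 1). The deposited counts of sponge replicate 3 and of a scramble library stand joined in 1 field and were split as described under processing, and every member was among the genes whose split was kept. The labels were checked on reads over the Mir342 hairpin. Overexpression replicates 1, 2 and 3 had 487, 483 and 242 such reads, the mutated control libraries 136 and 133, and all sponge and scramble libraries 0, which allows up to 0.0892 CPM (counts scaled to library size) in the shallowest of them. These reads come from polyadenylated RNA and do not measure the mature microRNA. With 0 reads in both, the sponge and scramble labels cannot be told apart by this check. All 12 macrophage markers were tested, and their summed level ran from 8242.5 to 9393.9 CPM over the 10 libraries. Of 10 Kupffer cell markers 7 were tested and 5 stood under 1 CPM. Clec4f and Timd4, which define resident Kupffer cells, had no read in any library and Vsig4 averaged 0.0403 CPM. Spic, Id3, Marco, Nr1h3 and Cd5l averaged 12.5, 5.07, 3.43, 2.17 and 2.09 CPM, and Folr2 and Cd163 0.70 and 0.58 CPM. The hepatocyte markers summed to at most 0.0788 CPM. Stellate and fibroblast markers summed to between 1.16 and 1.9 CPM.

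Against its own control vector, 2 members were lower with overexpression, the ligand Vegfa and its receptor Kdr. Vegfa was 2.16-fold lower and Kdr 1.38-fold lower than in the mutated control, while Vegfb, Flt1, Nrp1 and Nrp2 did not pass the test. The count is 2 of 6 members tested, and 0.539% of all 15767 genes tested passed the same threshold (edgeR quasi-likelihood test, Benjamini-Hochberg adjusted p under 0.05). Vegfc and Pgf were too sparse to be tested. No member passed for the sponge against its scramble control, where 0% of all genes passed.

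On the length-scaled scale (RPKM, TMM-scaled CPM divided by exonic length in kilobases), the members spanned a wide range. Nrp2 stood highest with a mean of 82.4 RPKM over the 10 libraries, above 96.7% of the genes tested. Vegfb followed with 67 RPKM, then Nrp1 with 42.9 and Vegfa with 17.9. The kinase receptors were far lower, Kdr at 2.32 RPKM and Flt1 at 0.841 RPKM, above 39.7% and 27.3% of the genes tested. Pgf (0.037 RPKM) and Vegfc (0.0138 RPKM) were at the limit of detection. The co-receptors therefore exceeded both kinase receptors in every library, and the ratio of Nrp2 to Kdr ran from 26.4 to 46.6. Vegfb transcript exceeded Vegfa transcript in every library, with the smallest ratio, 2.33, in a mutated control library and the largest, 7.11, in an overexpression library.

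**Figure D2:**
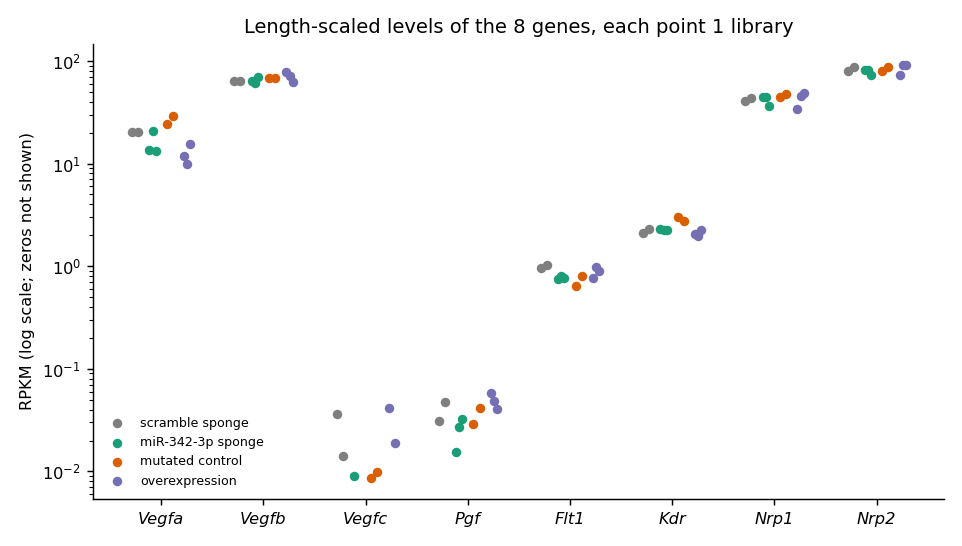
Length-scaled level (RPKM, log axis) of each gene, each point 1 library and each colour 1 group. The neuropilins and Vegfb stand highest, Kdr and Flt1 near 2.32 and 0.841 RPKM, and Vegfc and Pgf lowest. Libraries with no read of Vegfc are not drawn.

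Vegfa lies on chromosome 17 (46327919 to 46343295, minus strand, coordinates as deposited here and for each member below). These are not GRCm38 positions, so they cannot be compared with those of the target and promoter windows. Vegfa had 50.4, 42.9 and 66.8 CPM in overexpression replicates 1, 2 and 3, and 104.9 and 125.3 CPM in the mutated control. All overexpression libraries were below both mutated control libraries. The scramble libraries, at 86.9 and 88 CPM, lay between those groups. Sponge replicates 1, 2 and 3 had 57.9, 89.2 and 56.3 CPM, so that replicates 1 and 3 lay within the overexpression range and replicate 2 beside the scramble libraries. The log2 fold change of overexpression against mutated control was -1.11 (SE 0.20, 95% interval -1.57 to -0.66, edgeR adjusted p = 0.0489). In bulk libraries fewer cells expressing a gene and less RNA per cell cannot be told apart.

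Against the scramble control, the overexpression libraries were again all lower in Vegfa, by a log2 fold change of -0.72 (SE 0.21, edgeR adjusted p = 0.221), which did not pass. The sponge stood at -0.37 (SE 0.21) against the same scramble libraries, with overlapping groups. The mutated control stood at 0.40 (SE 0.23) against the scramble control, and neither of these values passed. The group means ordered as overexpression, sponge, scramble and mutated control, and only the mutated control stood clear of its neighbour in that order. Vegfa with overexpression was thus 2.16-fold below the mutated control and 1.65-fold below the scramble control.

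Vegfb, a ligand of Flt1, lies on chromosome 19 (6959841 to 6965019, minus strand) and was the steadiest ligand. Its lowest library, sponge replicate 2, had 97.7 CPM and its highest, overexpression replicate 1, 124.3 CPM, a 1.27-fold span. Group means were 112.5 ± 12.7 CPM with overexpression (SD, n = 3), 110 ± 0.763 in the mutated control (n = 2), 104 ± 7.13 with the sponge (n = 3) and 103.2 ± 0.276 in the scramble control (n = 2). Every group overlapped its neighbour in the order of means. The difference between overexpression and mutated control was 0.03 in log2 (95% interval -0.17 to 0.23).

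Vegfc (chromosome 8, 54530641 to 54640131, plus strand) had 16 reads over all 10 libraries. Overexpression replicates 1, 2 and 3 had 6, 2 and 0 reads, the mutated control libraries 1 each, the sponge libraries 1, 0 and 0, and the scramble libraries 3 and 2. Pgf (chromosome 12, 85213409 to 85224564, minus strand) had 49 reads. These were 10, 6 and 3 with overexpression, 4 and 5 in the mutated control, 2, 4 and 4 with the sponge, and 3 and 8 in the scramble control. Differences between groups were not tested in either gene, because the reads were too few.

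**Figure D3:**
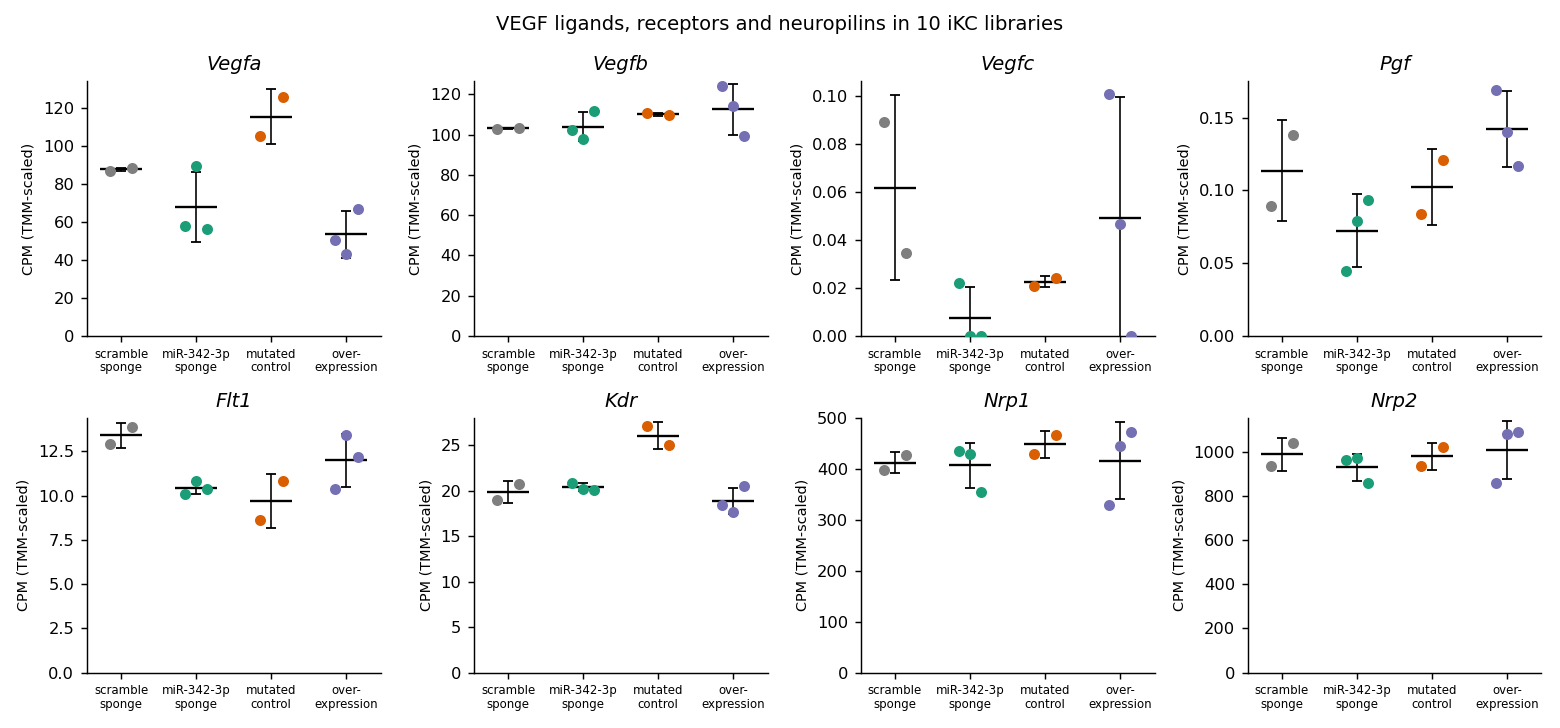
TMM-scaled CPM of each gene in each of the 10 libraries (points), with group means (bars) and SD (whiskers), n = 2 for the scramble and mutated controls and n = 3 for the others. Each panel has its own axis from 0. In Vegfa the overexpression points lie under both mutated control points, and in Kdr the mutated control points lie above all others.

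Kdr lies on chromosome 5 (76093487 to 76139118, minus strand). Overexpression replicates 1, 2 and 3 had 18.4, 17.7 and 20.5 CPM, and the mutated control libraries 27.1 and 25 CPM. The sponge libraries had 20.9, 20.2 and 20.1 CPM and the scramble libraries 19 and 20.7 CPM. The mutated control therefore stood apart from all 8 other libraries, which lay between 17.7 and 20.9 CPM. The log2 fold change of overexpression against mutated control was -0.47 (SE 0.08, 95% interval -0.64 to -0.29, edgeR adjusted p = 0.0352). Against the scramble control it was -0.08 (SE 0.08, 95% interval -0.26 to 0.10, adjusted p = 0.684), with overlapping groups. The mutated control was 1.31-fold above the scramble control, a log2 fold change of 0.39 (SE 0.09) that did not pass after adjustment (edgeR adjusted p = 0.233). The interval against the scramble control does not reach -0.47, but that value has its own error and both comparisons share the overexpression libraries. The gap between them is the difference of the mutated from the scramble control, which did not pass in edgeR.

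Kdr is a classical endothelial gene, so endothelial markers were read beside it. Their summed level was 101.1 to 132.2 CPM with overexpression and 133.1 to 153.3 CPM in the mutated control, with 142.7 to 166.3 CPM in the scramble control and 147.2 to 168 CPM with the sponge. Most of that sum was Vwf (137.7 CPM on average), and 12 of 16 markers stood under 1 CPM. The defining markers Pecam1 and Cdh5 were at 0.311 and 1.32 CPM, and Clec4g and Robo4 had no read. Stab2 and Egfl7 averaged 2.21 and 1.15 CPM. Kupffer cell markers summed to less with overexpression (21.8 to 27.5 CPM) than in the mutated control (29.6 to 30.6 CPM), while the scramble control (25.9 to 26.8 CPM) and the sponge (23.8 to 27.4 CPM) lay within the overexpression range. The part of these marker levels in the Vegfa and Kdr results was not tested.

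Flt1 lies on chromosome 5 (147498414 to 147662821, minus strand). The scramble libraries had 12.9 and 13.9 CPM, and sponge replicates 1, 2 and 3 had 10.1, 10.8 and 10.4 CPM. The sponge libraries were all lower, by a log2 fold change of -0.36 (SE 0.12, edgeR unadjusted p = 0.0113), which did not pass after adjustment (adjusted p = 1). The mutated control libraries had 8.63 and 10.8 CPM and overexpression replicates 1, 2 and 3 had 10.4, 13.4 and 12.2 CPM, with overlapping groups and a log2 fold change of 0.30 (SE 0.12, adjusted p = 0.236). Flt1 thus had its lowest mean in the mutated control, where Kdr had its highest. In RPKM, the ratio of Kdr to Flt1 averaged 4.08 in the mutated control (3.46 and 4.69 in its libraries), 2.38 with overexpression, 2.92 with the sponge and 2.22 in the scramble control. Over the 10 libraries Kdr and Flt1 had a Pearson r of -0.61 on the log2 scale, a description over libraries that share 4 groups.

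Nrp1 lies on chromosome 8 (129085085 to 129229844, plus strand) and ranged from 330.2 CPM in overexpression replicate 1, the deepest library, to 473.8 CPM in overexpression replicate 3, the shallowest. The extremes thus fell within 1 group. Group means were 416.8 ± 76.3 CPM with overexpression (SD, n = 3), 448.9 ± 26 in the mutated control (n = 2), 407.6 ± 44.8 with the sponge (n = 3) and 412.9 ± 21 in the scramble control (n = 2). The difference between overexpression and mutated control was -0.11 in log2 (95% interval -0.41 to 0.20). Of its exonic bases 0.818% lie in Mir1903, the sole exonic overlap of a member with another gene.

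Nrp2 lies on chromosome 1 (62742444 to 62857854, plus strand). Group means were 1009.8 ± 131.3 CPM with overexpression (SD, n = 3), 979.7 ± 60.9 in the mutated control (n = 2), 930.7 ± 61.9 with the sponge (n = 3) and 988.9 ± 73.6 in the scramble control (n = 2). Overexpression differed from the mutated control by 0.04 in log2 (95% interval -0.19 to 0.28). The co-receptors varied together, with a Pearson r of 0.88 over the 10 libraries, and the RPKM ratio of Nrp2 to Nrp1 stayed between 1.80 and 2.15.

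**Figure D4:**
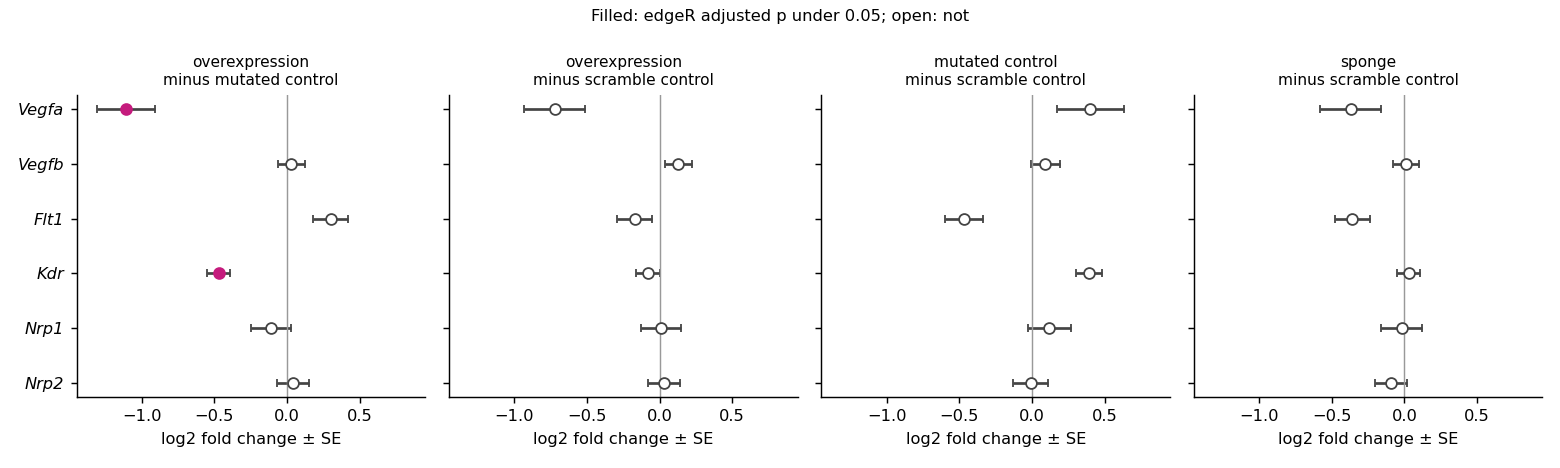
Log2 fold change ± SE of the 6 tested genes in 4 comparisons, from 1 edgeR fit of all 10 libraries. Filled points passed an adjusted p of 0.05. Vegfa (-1.11) and Kdr (-0.47) against the mutated control are the filled points.

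Set against all genes, the members gave the following counts. Overexpression against mutated control separated 2 of 6 members with no overlap between groups, where 38.2% of all genes did, and the members' median log2 fold change was -0.04 against -0.006 for all genes. For sponge against scramble control edgeR, DESeq2 and limma-voom called 0 members, 1 of 6 (Flt1) had an unadjusted p under 0.05 in edgeR and did not overlap, and 15.2% of all genes did not overlap. An unadjusted p under 0.05 was found for 2.33% of all genes there. For mutated against scramble control edgeR called 0 members with 2 at an unadjusted p under 0.05 (Flt1 and Kdr, beside 6.47% of all genes), while 0.0254% of all genes were called. DESeq2 called Kdr there (adjusted p = 0.0438), beside 0.259% of all genes, and limma-voom called no member. In that comparison 5 of 6 members did not overlap, beside 48.4% of all genes. For overexpression against scramble control edgeR, DESeq2 and limma-voom called 0 members, and 0.0444% of all genes passed in edgeR. There 1 of 6 members, Vegfa, had an unadjusted p under 0.05, as did 13.4% of all genes, and did not overlap, where 31.0% of all genes did not.

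Whether the overexpression and sponge vectors moved a member differently, each against its own control, was tested as the difference of the effects. No member passed in edgeR, DESeq2 or limma-voom (0% of all genes in edgeR), and 3 of 6 members had an unadjusted p under 0.05, beside 8.06% of all genes. Kdr had a difference of -0.50 in log2 (SE 0.11, edgeR adjusted p = 0.308), Flt1 0.66 (SE 0.17, adjusted p = 0.392) and Vegfa -0.75 (SE 0.29, adjusted p = 0.583). The comparisons share libraries, so they are given side by side and not as independent evidence.

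The calls for Vegfa and Kdr lay close to the threshold. Leaving out 1 library at a time kept both calls in 3 of 10 fits and ended both without overexpression replicates 1 or 2, either mutated control library, sponge replicate 1 or either scramble library. Without those libraries the edgeR adjusted p for Vegfa ran up to 0.399 and for Kdr up to 0.371, while over all 10 fits the log2 fold change stayed between -1.29 and -0.97 for Vegfa and between -0.52 and -0.41 for Kdr.

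**Figure D5:**
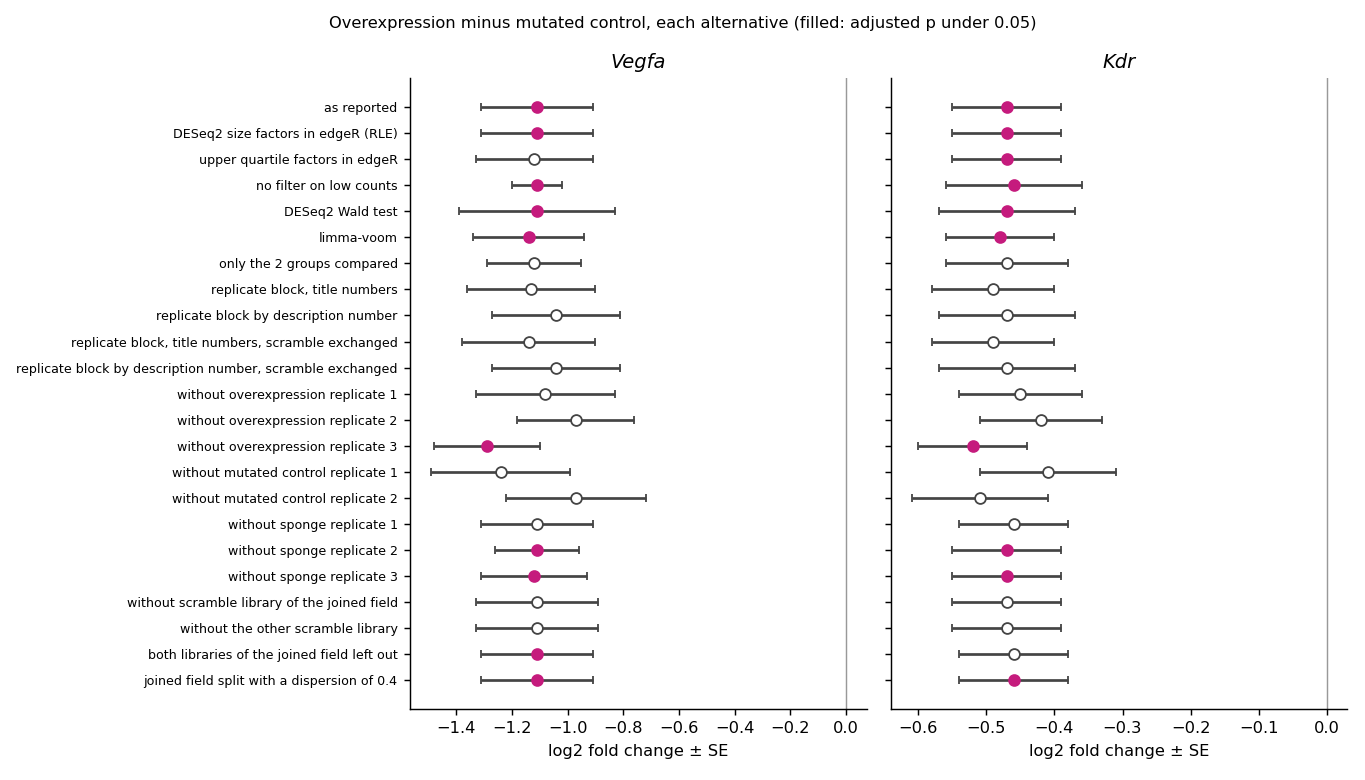
Log2 fold change ± SE of Vegfa and Kdr, overexpression against mutated control, as reported and under each of 22 alternatives, with filled points for an adjusted p under 0.05. Every point lies under 0, and 9 of 22 alternatives keep each gene past the threshold.

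The promoters of the called members are shown because both genes passed in the same comparison, each as RefSeq gives it for GRCm38.p6, from 250 bases before to 50 after the annotated start. Capitals mark GGGCGG on either strand, the core of the GC box bound by Sp1-type factors. ACGTG, a form of the core of the hypoxia response element, was searched on both strands too, and neither window holds it. The form GCGTG was not searched, and the Kdr window below contains it. Bases further upstream were not searched.
Vegfa, chr17:46032328-46032627 minus strand: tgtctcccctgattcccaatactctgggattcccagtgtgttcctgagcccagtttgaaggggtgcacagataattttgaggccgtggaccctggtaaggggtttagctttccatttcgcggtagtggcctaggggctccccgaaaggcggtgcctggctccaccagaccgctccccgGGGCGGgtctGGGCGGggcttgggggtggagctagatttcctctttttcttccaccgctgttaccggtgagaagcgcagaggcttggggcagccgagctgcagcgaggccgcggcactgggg
Kdr, chr5:75978406-75978705 minus strand: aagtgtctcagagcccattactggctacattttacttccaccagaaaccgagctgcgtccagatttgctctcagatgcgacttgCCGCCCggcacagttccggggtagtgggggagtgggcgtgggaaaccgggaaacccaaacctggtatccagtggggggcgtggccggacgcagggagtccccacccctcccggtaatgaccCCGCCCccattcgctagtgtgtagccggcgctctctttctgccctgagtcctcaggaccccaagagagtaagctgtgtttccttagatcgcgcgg
Each window holds 2 copies of GGGCGG, a motif found in 35.7% of 32851 windows of that length, and ACGTG was found in 19.6%. GC content was 62.0% for Vegfa and 60.7% for Kdr, against a median of 52.7%. These traits were not particular to the called members. The first windows of the uncalled members held from 1 copy of GGGCGG (Nrp1) to 5 (Nrp2). Their GC content was higher, from 64.0% (Nrp1) to 75.3% (Vegfb). A further Vegfa start in the table has 1 ACGTG and 1 GGGCGG in its window. Promoter windows were found for 8 of 8 members, and the library data bear on total transcript, not on which start was used.

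Genes around the VEGF system were read from lists. For overexpression against mutated control 18.2% of all genes had an unadjusted edgeR p under 0.05, and the counts of list genes at that level below are to be set against that share. Calls of list genes in that comparison are to be set against 0.539% of all genes in edgeR, 1.51% in DESeq2 and 0.59% in limma-voom. Of 37 tested receptor signalling genes, 1 passed for overexpression against mutated control. It was Src, a cytoplasmic tyrosine kinase that acts downstream of VEGFR2. Src fell by 0.91 on the log2 scale (SE 0.16, edgeR adjusted p = 0.0452), from 8.16 ± 0.052 CPM (SD, n = 2) to 4.33 ± 0.549 CPM (SD, n = 3). Its sponge and scramble means were 4.88 ± 0.843 (SD, n = 3) and 5.17 ± 1.01 CPM (SD, n = 2), so the mutated control stood highest, as it did for Kdr. DESeq2 called 3 genes of that list, all lower, and limma-voom called Src alone. The call held in 4 of 10 fits that left out 1 library and was lost without overexpression replicate 2, either mutated control library, sponge replicate 1 or either scramble library (edgeR adjusted p up to 0.399).

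Among 16 tested partner receptors and semaphorins edgeR called 0 (5 at an unadjusted p under 0.05). By contrast 2 were called in DESeq2 and 1 in limma-voom. The most abundant were Itgb1, an integrin subunit, at 811 ± 14.7 CPM in the mutated control (SD, n = 2) and 791.2 ± 14.6 with overexpression (SD, n = 3), and Plxnd1, a semaphorin receptor, at 427.2 ± 6.01 and 353.6 ± 41.7 CPM. The third VEGF receptor gene, Flt4, averaged 0.192 CPM, and its ligand gene Vegfd had 18 reads in all.

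Hypoxia-induced genes were listed because Vegfa is among the best known of them. Of 25 tested hypoxia targets edgeR and limma-voom called 0 for overexpression against mutated control and DESeq2 1, with 11 at an unadjusted p under 0.05 in edgeR. Their median log2 fold change was 0.21 and 19 lay above 0, beside a median of -0.006 for all genes. Gapdh and Aldoa, glycolytic enzymes, had 0.30 (SE 0.14) and 0.25 (SE 0.11). Of 15 tested genes of oxygen sensing, none passed in edgeR, DESeq2 or limma-voom, and 2 had an unadjusted p under 0.05. Rack1 and Cited2, regulators of hypoxia-inducible factor, had 0.20 each (SE 0.10 and 0.09). Of 22 genes that control Vegfa transcription, splicing or mRNA stability, 0 passed in edgeR or limma-voom, DESeq2 called 1, and 3 had an unadjusted edgeR p under 0.05. The gene called in DESeq2 was Fos, a subunit of the AP-1 factor, with -0.56 (SE 0.14, edgeR adjusted p = 0.106), and Ybx1, an RNA-binding protein gene, had 0.16 (SE 0.09).

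Of 24 tested other angiogenic factors edgeR and limma-voom called 0 and DESeq2 1, with 8 at an unadjusted p under 0.05. Their median log2 fold change was -0.19, and 7 lay above 0. The most abundant were Grn, encoding progranulin, with 0.07 (SE 0.07), and Spp1, encoding osteopontin, with -0.14 (SE 0.07). Of 20 tested feedback and target genes of VEGF receptors edgeR and limma-voom called 0, while DESeq2 called 3 higher and 1 lower and 10 had an unadjusted edgeR p under 0.05. Icam1, an adhesion molecule, had 0.10 (SE 0.09) and Dusp1, a phosphatase of MAP kinases, -0.13 (SE 0.10). For sponge against scramble control none of these lists had a gene called in edgeR, DESeq2 or limma-voom, and at most 1 gene per list had an unadjusted p under 0.05. For overexpression against scramble control edgeR and limma-voom called 0 list genes. DESeq2, which called 0.682% of all genes there, called Cited2, 3 hypoxia targets, 1 Vegfa control gene and 5 feedback and target genes, all higher. Of other angiogenic factors it called 1 higher and 1 lower, and of partner receptors and receptor signalling genes 0.

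Likeness to each tested member was measured as Pearson r of log2 (CPM + 0.5) over the 10 libraries, among 9167 genes with a mean of at least 8 CPM. The libraries share 4 groups and their depth, so r is a description. Vegfa was most like Tgm2 (r = 0.988), Kansl2 (0.979) and Eepd1 (0.978). Tgm2, a transglutaminase, had a log2 fold change of -0.94 (SE 0.17) for overexpression against mutated control. Kdr was most like Cd36 (0.943), Npepps (0.942) and Slc12a9 (0.936). Cd36, a scavenger receptor, had -0.37 (SE 0.06). Both genes were chosen for their likeness to a member over the same libraries, which fixes their direction, so these values are given without a test. Vegfb was most like Tarbp2 (0.976), Glrx5 (0.966) and Plcl2 (0.964), and Flt1 most like Uvrag (0.889), Mx1 (0.855) and Tlr3 (0.853). Nrp1 was most like Dnajc13 (0.991), Diaph2 (0.986) and Peak1 (0.983), and Nrp2 most like Dock8 (0.983), Siglec1 (0.965) and Cpd (0.954). Among the members themselves, Vegfa and Kdr had an r of 0.76.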

How the data were processed

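Polyadenylated RNA of 10 libraries was measured, grouped by title. The deposited table holds whole-number read counts per gene, without normalization, made by the authors with featureCounts 2.0.1 against GENCODE vM30 by gene name, paired and without strand, per the file headers. The submitters' processing notes name FastQC 0.11.6, Trimmomatic, STAR 2.7.6a, Subread and GRCm38; vM30 belongs to a later build, so gene coordinates are those deposited, with no build named. The counting command names 12 libraries and 10 are analysed here. Each line has 15 fields under 16 names, because sponge replicate 3 and a scramble library share 1 field. It was split at the likeliest place under a negative binomial (dispersion 0.1), keeping splits at least 100 times likelier than the next, which left out 51 genes. On 18 pairs of intact libraries joined on purpose at least 99.6456% of genes were recovered and no member was wrong. The replicate number of the scramble libraries is not certain.

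Counts were tested with edgeR 4.0.16 in R 4.3.3 (quasi-likelihood, robust, TMM, filter by expression), 1 fit of 10 libraries with 6 residual degrees of freedom and 15767 genes; p-values are Benjamini-Hochberg adjusted over those genes at 0.05. The SE is the log2 fold change over the square root of F, and intervals are 95%. CPM uses TMM factors and RPKM divides by deposited exonic length. A count of 0 allows up to 3 reads; this limit covers counting error only. Alternatives were DESeq2 1.42.0, limma-voom (limma 3.58.1), other factors, no filter, fewer groups, replicate blocks and leaving out each library. The functions were tested on simulated counts. Named were all members and, per member, the 3 genes of highest r. Of each list other than the cell type markers, the called genes or else the 2 with the highest level were named. Flt4, Vegfd and the marker genes printed beside them were chosen after their values were seen. The members and lists were chosen with earlier results of these data known.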

Additional observations from a re-analysis of the deposited data

How the results depend on the processing

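For overexpression against mutated control, 2 members were called as reported. The count was 1 with upper quartile factors (Vegfa adjusted p = 0.0504), 0 with only the 2 groups compared, and 1 with both libraries of the joined field left out. Those settings called 0.381%, 0.222% and 0.475% of all genes. Leaving out single libraries gave 0 to 2. The replicate block gave 0 by title numbers, 0 by description numbers, and 0 for each with the scramble numbers exchanged, an alternative added after seeing the data. Same-numbered libraries had correlations of deviations between -0.61 and 0.25. Differently numbered libraries were not compared, so these values cannot decide whether the numbers pair samples. The fit as reported has no block, and no call stands if the numbers do pair samples. Of all genes, the replicate block called 0, against 85 without it. Without the filter 1390 genes were called, with DESeq2 450, with 2 groups 34, and leaving out 1 library 0 to 279. For mutated against scramble control the members called were 2 without the filter, 1 with DESeq2 and 3 with only those 2 groups. Those settings called 0.5%, 0.259% and 3.79% of all genes. Leaving out single libraries gave 0 members. Without the filter 1 member was called for overexpression against scramble control (2.51% of all genes) and 3 for the difference of effects (1.11%). The cause of these changes was not tested.

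Values near 0 changed sign. Against the mutated control Vegfb was 0 with the block by description number, with either scramble numbering. Leaving out single libraries gave Vegfb -0.04 to 0.13, Nrp1 -0.20 to 0.04 and Nrp2 -0.02 to 0.15. For the sponge, Vegfb was -0.02 and Nrp1 0.04 with the block by description number, in both numberings. With the joined field left out, Vegfb was -0.05, Kdr -0.02 and Nrp1 0.02. Leaving out single libraries gave Vegfb -0.04 to 0.05, Kdr -0.02 to 0.10 and Nrp1 -0.07 to 0.07. For mutated against scramble control Nrp2 ran from -0.09 to 0.06. For overexpression against scramble control Nrp1 was 0 in limma-voom, and with the joined field left out Nrp1 was -0.03 and Nrp2 -0.04. Leaving out single libraries gave Nrp1 -0.08 to 0.16 and Nrp2 -0.04 to 0.13. For the difference of effects Vegfb ran from -0.05 to 0.11 and Nrp1 from -0.18 to 0.05. Over all alternatives 586 member values kept direction and side, 26 lost the threshold, 10 gained it and 32 changed sign; none of the 32 was called. With 2 libraries in each control group, leaving 1 out rests on the spread of the other groups. Vegfc and Pgf are limited by depth.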

Other observations

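Some genes of the lists came close to the threshold for overexpression against mutated control and were chosen here after their values were seen. Plxna4, a semaphorin receptor gene, had a log2 fold change of -0.92 (SE 0.18, edgeR adjusted p = 0.0524), with 2.87 ± 0.511 CPM (SD, n = 3) against 5.32 ± 0.0702 CPM (SD, n = 2), and 2.95 ± 0.255 CPM in the scramble control (SD, n = 2). DESeq2 and limma-voom called it. Plau, encoding urokinase, had 1.01 (SE 0.21, edgeR adjusted p = 0.0656), and Dusp6, a phosphatase of ERK, had 0.68 (SE 0.14, edgeR adjusted p = 0.0719). DESeq2 called both, limma-voom neither. Pdgfc, a platelet-derived growth factor gene, had -1.01 (SE 0.22, edgeR adjusted p = 0.0753) and was called by DESeq2.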
